A study of Rattus norvegicus with 54 samples.

Results

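10 genes of the Notch pathway were followed through the infarcted rat heart: the 4 receptors Notch1, Notch2, Notch3 and Notch4, the 3 ligands Jag1, Jag2 and Dll4, and the 3 target genes Hey1, Hey2 and Heyl. They were found by symbol among the 40319 genes counted in each of the 54 libraries, and all 10 were present, with at least 95 counts in every library. The question was whether the higher Notch3 of hearts treated with a cell sheet was shared by the other receptors, by the ligands or by the targets. The set was chosen by that Notch3 difference, so Notch3 values in the infarct and border zones of cell sheet hearts are given as a description with no test. The MI libraries of these zones also entered that difference, so Notch3 tests that use them are not independent of the choice.

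The animals were female athymic F344/NJcl-rnu/rnu rats, 8 weeks old at surgery. Sham rats had the operation without ligation, MI rats had the proximal left anterior descending artery tied permanently, and MI+Cell Sheet rats had the same ligation followed by a bi-level sheet laid over the infarct. The sheet held human endothelial progenitor cells and smooth muscle cells derived from human mesenchymal stem cells. At 1 week, the ventricle below the stitch was cut into an infarct zone (the anterior wall), a border zone (the lateral wall) and a remote zone (the septum), and the same 3 pieces were taken from sham hearts. The 9 groups of treatment and zone held 6 libraries each, from 18 animals. The labels call the libraries technical replicates, whereas the study's methods describe separate hearts, so the p-values measure the spread between these libraries. The athymic host lacks most of its T cells, all animals were of a single sex and age, and there was no group with a cell sheet but no infarct. Human reads were not separated from rat reads here, and their part in any value was not tested.

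Notch receptors are membrane proteins that are activated by ligands on a neighbouring cell. The bound receptor is cut in steps, the last by gamma-secretase, and the freed intracellular part joins the DNA-binding protein RBPJ to switch on genes such as the Hey family of repressors. Notch1 and Notch4, with the ligands Dll4, Jag1 and Jag2, are known from vascular endothelium, while Notch3 is the main receptor of arterial smooth muscle cells and pericytes and Heyl is among its targets there. Notch2 is found in smooth muscle and in myeloid cells.

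RBPJ is known to prefer the letters TGGGAA, so these were searched for on both strands of the RefSeq promoter windows of the set (GRCr8 build, 250 bases before to 50 bases after a start, 300 bases in all). The windows of Notch3, Hey2 and Heyl are shown, for the receptor that selected the set and for 2 of the target genes. Matches are in capitals, and TTCCCA is the same motif on the opposite strand. The Notch3 window lies on chr7:11834536-11834835 (minus strand), the Hey2 window on chr1:28640850-28641149 (plus strand) and the Heyl window on chr5:140793021-140793320 (plus strand).
Notch3: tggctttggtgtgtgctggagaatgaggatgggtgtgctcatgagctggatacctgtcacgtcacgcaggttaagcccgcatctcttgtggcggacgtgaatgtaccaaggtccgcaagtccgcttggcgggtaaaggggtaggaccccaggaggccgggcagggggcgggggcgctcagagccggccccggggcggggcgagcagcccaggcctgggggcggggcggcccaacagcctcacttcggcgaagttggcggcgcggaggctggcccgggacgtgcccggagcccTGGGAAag
Hey2: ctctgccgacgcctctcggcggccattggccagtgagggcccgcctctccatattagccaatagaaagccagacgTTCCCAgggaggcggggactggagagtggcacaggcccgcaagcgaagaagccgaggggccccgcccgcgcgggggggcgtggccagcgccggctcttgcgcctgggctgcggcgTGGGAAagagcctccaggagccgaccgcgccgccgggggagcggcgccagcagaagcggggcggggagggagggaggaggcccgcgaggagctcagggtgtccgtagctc
Heyl: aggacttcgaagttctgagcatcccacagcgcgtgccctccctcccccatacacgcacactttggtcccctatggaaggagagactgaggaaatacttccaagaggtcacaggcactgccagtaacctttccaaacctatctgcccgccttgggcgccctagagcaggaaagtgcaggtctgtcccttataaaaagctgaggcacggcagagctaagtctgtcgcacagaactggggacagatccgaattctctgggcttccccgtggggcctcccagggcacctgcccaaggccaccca
The Notch3 window held 1 match, starting at base 293 of the window. The Hey2 window held 2 and the Heyl window held none. Of the 8 members with a window, 3 held the motif, the third being Notch4 with 2 matches, against 25.7% of all 33469 windows with at least 1 match and 3.85% with 2 or more. Hey1 and Dll4 had no entry. A match is a match of letters in this window, and binding was not measured.

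The libraries held 12699204 to 23397754 counts on genes, and levels are given as CPM, the count of a gene scaled to a common library size after TMM normalization. Without transcript lengths, levels were compared between groups and never between genes. Cardiomyocyte, endothelial, mural (smooth muscle and pericyte) and macrophage markers were all detected in every library. The 3 libraries of sham replicate 5 stood apart: 8 macrophage markers summed to 12300, 12300 and 7050 CPM in its infarct, border and remote pieces, against 320 to 775 CPM in the other sham libraries, and its cardiomyocyte markers were the lowest of the sham hearts. The remote piece of cell sheet replicate 1 had 3120 CPM of macrophage markers against 406 to 759 CPM in the other 5, and its border piece had 164 CPM of cardiomyocyte markers against 8610 to 27600 CPM. T cell markers summed to 321, 389 and 265 CPM in the infarct, border and remote pieces of sham replicate 5, against 1.73 to 13.7 CPM in the other sham libraries of these athymic rats. Whether these 2 animals were unwell or wrongly labelled was not tested, and it bears on each comparison that uses them. Calls that turn on them are given with and without them. In whole tissue, fewer cells of a type and less RNA per cell cannot be told apart.

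The higher Notch3 was not shared by the whole set. In cell sheet hearts against MI hearts, Notch2, Jag2 and Notch1 were higher in the border zone, by 1.32 to 1.53-fold, and none of the 9 members other than Notch3 was called higher in the other zones with all libraries in. No Hey gene was called higher after the sheet with all libraries in, and Hey2 was called higher in the remote zone without cell sheet replicate 1 (0.49, adjusted p = 0.0447). The count of members called (edgeR quasi-likelihood test, Benjamini-Hochberg adjusted p under 0.05 over all genes) was 0 of 9 apart from Notch3 in the infarct zone, where 0% of all 16196 genes were called. At an unadjusted p under 0.05 the infarct zone had 3 of the 9 members and 1341 genes, and DESeq2 called 59 genes. It was 3 of 9 in the border zone, all higher, where 18% of genes were called, and 1 of 10 in the remote zone, Notch3 itself, where 17.1% were called. Leaving out cell sheet replicate 1 made the remote count 6 of 10, where 41.6% of all genes were called. Notch3, Jag2 and Hey2 were then higher and Notch2, Jag1 and Heyl lower. Leaving out MI replicate 2 made the remote count 3, and either of MI replicates 3 and 6 made it 2. With the infarct and border pieces of each heart summed, 1 of 9 was called, Notch2, against 12.1% of all genes, and this count became 0 on leaving out cell sheet replicate 2, 2 for cell sheet replicate 4 or MI replicate 2, and 3 for MI replicate 5. The median log2 fold change of the 9 members was -0.02 (infarct zone) and 0.28 (border zone), while that of all genes was -0.01 and 0.00.

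**Figure D1:**
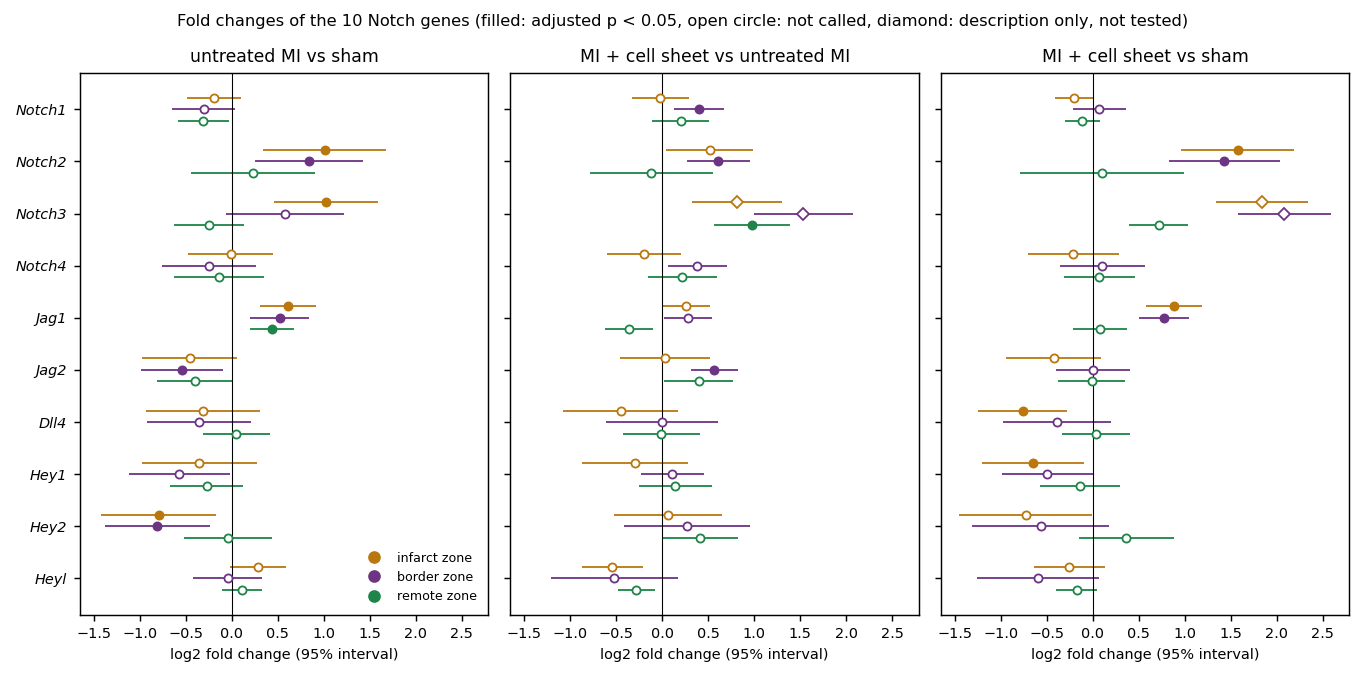
Log2 fold changes of the 10 genes in each zone for MI against sham, cell sheet against MI and cell sheet against sham, with 95% intervals from the edgeR fit of 6 libraries a group. Notch3 in the border zone of cell sheet against MI hearts has the highest value of that comparison, 1.53, and the 3 Hey genes lie on either side of 0 there.

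Notch3, the receptor of the vessel wall, is described first. In the infarct zone its CPM ran from 26.7 through a median of 51.8 to 64.0 in sham hearts, from 43.1 through 104 to 128 in MI hearts and from 137 through 166 to 226 in cell sheet hearts. Every cell sheet library was above every MI and sham library, whereas the sham and MI ranges overlapped. Infarction alone raised Notch3 in this zone, with a log2 fold change of 1.02 (SE 0.26, adjusted p = 0.00732, edgeR), or 2.04-fold. These MI libraries had also entered the choice of the set. The cell sheet against MI difference was 0.81 on the log2 scale (95% interval 0.33 to 1.30), given as a description.

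In the border zone Notch3 ran from 27.8 through 59.8 to 70.1 CPM in sham, from 31.5 through 91.5 to 104 CPM in MI and from 182 through 233 to 298 CPM in cell sheet hearts. The lowest cell sheet library was again above the highest MI library. The MI border libraries had entered the choice of the set as well. The MI over sham difference of 0.58 (SE 0.29, adjusted p = 0.131, edgeR) did not pass, though it did without MI replicate 1 (0.74, adjusted p = 0.0265), with all 9 groups in a single fit (adjusted p = 0.0423) and without TMM scaling (adjusted p = 0.0459), and cell sheet against MI was 1.53 (95% interval 1.00 to 2.07), 2.89-fold, again as a description.

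The remote zone was tested, since its libraries were not in the infarct and border comparison that chose the set. They came from the same hearts, and the members were chosen with earlier results of these data known. The remote test is therefore not independent of that choice. Notch3 ran there from 61.2 through 75.1 to 95.3 CPM in sham, from 40.2 through 61.1 to 83.4 CPM in MI and from 102 through 111 to 166 CPM in cell sheet hearts. No cell sheet library overlapped either of the other groups. The difference from MI was 0.97 (SE 0.19, adjusted p = 0.00973, edgeR), 1.96-fold, and 0.87 (adjusted p = 0.00209) without cell sheet replicate 1. Infarction alone gave -0.25 (adjusted p = 0.313), and cell sheet against sham was 0.72 (95% interval 0.40 to 1.04, adjusted p = 0.144), a comparison in which a single gene of 15157 was called.

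**Figure D2:**
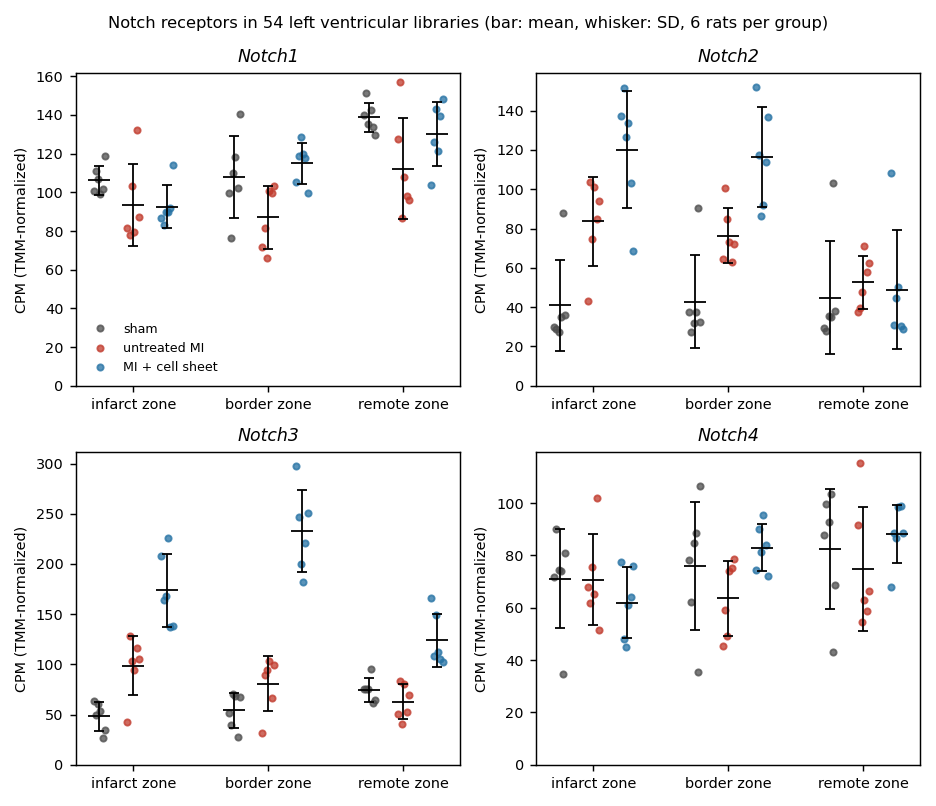
CPM of Notch1, Notch2, Notch3 and Notch4 in every library by zone and treatment, with points for the 6 libraries of a group, a bar at the mean and whiskers for the SD. Notch3 of cell sheet hearts lies above both other groups in all 3 zones (lowest values 137, 182 and 102 CPM), and sham replicate 5 is the high Notch2 point of the sham groups.

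Notch2 rose with infarction in the injured wall. In the infarct zone it ran from 27.5 through 32.5 to 87.9 CPM in sham, from 43.3 through 89.3 to 104 CPM in MI and from 68.4 through 130 to 151 CPM in cell sheet hearts. The groups overlapped, with sham replicate 5 as the high sham value. The rise in MI over sham was 1.01 (SE 0.31, adjusted p = 0.0172, edgeR), and 1.40 (adjusted p = 0.000112) without that animal. The further 0.52 in cell sheet over MI hearts (95% interval 0.04 to 0.99, adjusted p = 0.569) did not pass.

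In the border zone Notch2 ran from 27.1 through 34.9 to 90.3 CPM in sham, from 62.9 through 72.9 to 101 CPM in MI and from 86.6 through 116 to 152 CPM in cell sheet hearts. It rose with MI by 0.84 (SE 0.27, adjusted p = 0.0271, edgeR) and with the cell sheet over MI by 0.61 (SE 0.16, adjusted p = 0.019). Leaving out 1 library at a time moved the first adjusted p to between 4.13e-05 and 0.0605, with the call lost without MI replicate 2 or 3 or sham replicate 1, 2, 3, 4 or 6, and the second stayed at 0.0459 or lower. The cell sheet call was lost with all 9 groups in a single fit (adjusted p = 0.201).

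In the remote zone Notch2 had medians of 35.3 CPM in sham, 52.8 CPM in MI and 38.0 CPM in cell sheet hearts, and cell sheet against MI was -0.12 (adjusted p = 0.81, edgeR). Without cell sheet replicate 1, whose 108 CPM stood against 28.7 to 50.4 CPM in the other 5, the value was -0.52 (adjusted p = 0.0447), below MI. Without sham replicate 5, MI against sham was 0.67 (adjusted p = 0.00354) in place of 0.23 (adjusted p = 0.625).

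Across the 54 libraries log2 Notch2 followed the mean log2 of the macrophage markers, with r = 0.92 over all libraries and 0.89 after the group means were taken off. These points share libraries and scaling, and the correlation is a description. Of the 8 macrophage markers, 4 were higher and none lower in MI against sham in the infarct zone, a share like the 49.9% of all genes, and their summed CPM was 400 to 12280 in sham and 2479 to 11630 in MI hearts. The sham high was replicate 5 alone. The other sham libraries of that zone were at 400 to 775 CPM, below every MI library. In cell sheet against MI hearts none of the 8 was higher in any zone, and 1 was lower in the border and 1 in the remote zone. The part of macrophage RNA in the Notch2 values was not tested.

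Notch1 and Notch4, the receptors best known from endothelium, showed smaller differences. Notch1 in the border zone ran from 76.2 through 106 to 141 CPM in sham, from 65.9 through 90.7 to 103 CPM in MI and from 99.7 through 118 to 129 CPM in cell sheet hearts, so that the MI and cell sheet ranges overlapped only at their ends. The cell sheet value over MI was 0.40 (SE 0.13, adjusted p = 0.0434, edgeR), and the adjusted p rose to between 0.0706 and 0.0839 without any of cell sheet replicates 2 to 5 or MI replicates 1 to 3. Notch1 was called neither in the infarct (-0.02) nor in the remote zone (0.20) after the sheet, nor in any MI against sham comparison (-0.19, -0.30 and -0.31) with all libraries in. It was called lower with MI in the infarct zone without MI replicate 5 (-0.32, adjusted p = 0.0225) and in the remote zone without MI replicate 2 (-0.43, adjusted p = 0.00824), and lower in the infarct zone of cell sheet than of sham hearts without sham replicate 5 (-0.23, adjusted p = 0.0493).

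Notch4 in the border zone had medians of 81.5, 66.6 and 82.6 CPM in sham, MI and cell sheet hearts. After the sheet it differed from MI by 0.38 (95% interval 0.07 to 0.70, adjusted p = 0.0915, edgeR). With all libraries in, no comparison between treatments called it, and its log2 fold changes in the 9 of them lay between -0.25 and 0.38. It was called lower in the infarct zone of cell sheet than of sham hearts without sham replicate 5 (-0.36, adjusted p = 0.0461), and cell sheet against MI was called in the border zone without TMM scaling (0.44, adjusted p = 0.0489).

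Among the ligands, Jag1 rose with infarction in every zone. This ligand is made by endothelium and by smooth muscle, where it takes part in building the arterial wall. In the infarct zone it ran from 21.6 through 26.1 to 33.5 CPM in sham, from 32.8 through 41.8 to 54.1 CPM in MI and from 42.8 through 50.3 to 57.1 CPM in cell sheet hearts. All cell sheet libraries were above all sham libraries there, while the MI range overlapped both. Infarction raised it by 0.61 (SE 0.14, adjusted p = 0.00449, edgeR), and the sheet over MI gave 0.26 (95% interval 0.01 to 0.51, adjusted p = 0.595).

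In the border zone Jag1 ran from 20.5 through 30.5 to 33.6 CPM in sham, from 33.3 through 41.7 to 53.9 CPM in MI and from 47.4 through 49.8 to 59.1 CPM in cell sheet hearts. MI against sham was 0.52 (SE 0.15, adjusted p = 0.0157, edgeR) and cell sheet against MI was 0.28 (95% interval 0.02 to 0.54, adjusted p = 0.127). Against sham, the cell sheet hearts were 0.89 higher in the infarct zone (adjusted p = 0.000386). They were 0.78 higher in the border zone (adjusted p = 0.000438), with no overlap in either.

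In the remote zone Jag1 ran from 24.6 through 31.1 to 37.3 CPM in sham, from 36.7 through 42.5 to 47.2 CPM in MI and from 28.3 through 31.9 to 44.1 CPM in cell sheet hearts. It rose with MI by 0.44 (SE 0.11, adjusted p = 0.012, edgeR), and cell sheet against MI was -0.36 (SE 0.12, adjusted p = 0.053). The cell sheet value was -0.46 (adjusted p = 0.00218) without cell sheet replicate 1, whose library was the high one at 44.1 CPM. Notch3 was higher and Jag1 was not in these same remote libraries.

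Jag2, an endothelial ligand of the same family, was lower with infarction and higher with the sheet in the border zone. It ran there from 27.4 through 55.7 to 72.0 CPM in sham, from 29.3 through 35.4 to 47.2 CPM in MI and from 50.6 through 53.1 to 60.3 CPM in cell sheet hearts. Every cell sheet library was above every MI library. With MI it fell by 0.54 (SE 0.20, adjusted p = 0.0499, edgeR), and cell sheet against MI was 0.57 (SE 0.12, adjusted p = 0.00698), 1.48-fold.

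The adjusted p of the Jag2 fall with MI was between 0.00185 and 0.115 when 1 animal at a time was left out, and the call was lost for every omission but those of sham replicate 5 and MI replicate 5. The cell sheet call held for every omission, at 0.018 or lower, but had an adjusted p of 0.0585 with all 9 groups in a single fit. In the remote zone cell sheet against MI was 0.39 (adjusted p = 0.124, edgeR), then 0.49 (adjusted p = 0.0213) without cell sheet replicate 1 and 0.55 (adjusted p = 0.0254) without MI replicate 2. In the infarct zone it was 0.03 (95% interval -0.46 to 0.52). Without sham replicate 5, Jag2 was also called lower with MI in the infarct zone (-0.60, adjusted p = 0.0155) and in the remote zone (-0.51, adjusted p = 0.0134), and lower in the infarct zone of cell sheet than of sham hearts (-0.58, adjusted p = 0.00858), none of which passed with all libraries in.

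Dll4, the ligand of endothelial tip cells and arterial endothelium, was not called in any cell sheet against MI comparison, with values of -0.45 (infarct), -0.01 (border) and -0.01 (remote zone). Its infarct zone level ran from 22.9 through 43.5 to 51.6 CPM in sham, from 19.0 through 28.9 to 54.6 CPM in MI and from 18.5 through 23.1 to 34.8 CPM in cell sheet hearts. Cell sheet against sham was -0.76 there (SE 0.22, adjusted p = 0.0122, edgeR), 0.59 of the sham level.

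**Figure D3:**
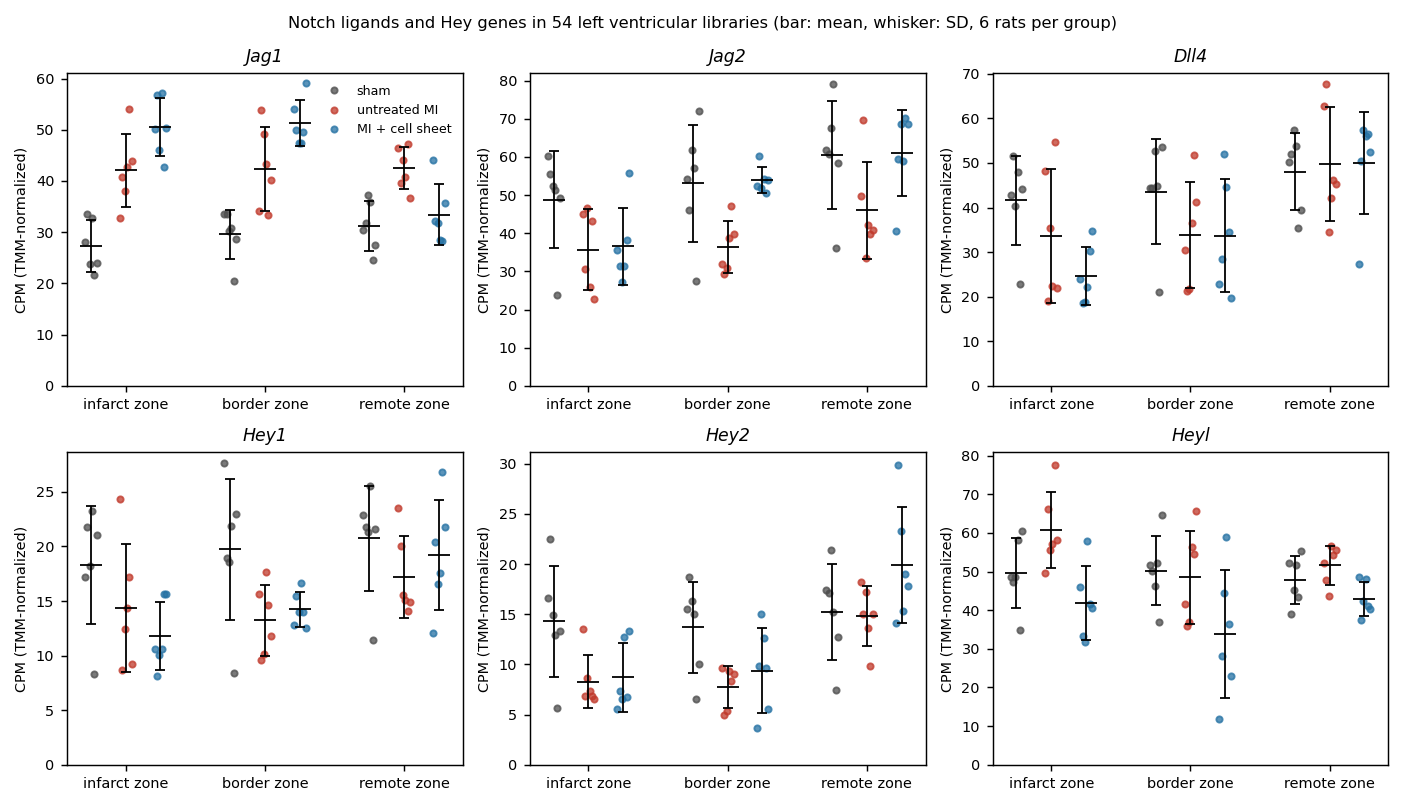
CPM of Jag1, Jag2, Dll4, Hey1, Hey2 and Heyl in every library by zone and treatment, with the 6 libraries of each group and their mean with SD. Jag1 of cell sheet hearts lies above sham in the infarct and border zones (lowest 42.8 and 47.4 CPM against a sham highest of 33.5 and 33.6 CPM), and the Hey genes of cell sheet hearts overlap both other groups.

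Heyl, the Hey gene tied to Notch3 in the vessel wall, was not called higher in cell sheet hearts in any comparison. Its infarct zone level ran from 34.8 through 48.6 to 60.4 CPM in sham, from 49.6 through 57.7 to 77.6 CPM in MI and from 31.7 through 41.1 to 58.0 CPM in cell sheet hearts. The groups overlapped. The cell sheet minus MI value was -0.54 (95% interval -0.87 to -0.21, adjusted p = 0.472, edgeR), one of the 3 members with an unadjusted p under 0.05.

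In the border zone Heyl ran from 37.0 through 50.9 to 64.5 CPM in sham, from 36.0 through 48.0 to 65.7 CPM in MI and from 11.8 through 32.3 to 59.0 CPM in cell sheet hearts, the widest spread of any of its groups. Cell sheet against MI was -0.52 (95% interval -1.21 to 0.17, adjusted p = 0.284, edgeR). Without cell sheet replicate 1, whose library was the low one at 11.8 CPM, it was -0.34 (adjusted p = 0.351). The cell sheet against MI value was -0.28 in the remote zone (SE 0.09, adjusted p = 0.0524), -0.32 there without cell sheet replicate 1 (adjusted p = 0.0137), and -0.56 in the summed infarct and border pieces (adjusted p = 0.0558). None of these values was above 0. In the summed pieces DESeq2 called Heyl lower (-0.56, adjusted p = 0.0219). Without cell sheet replicate 4 it was called too (-0.74, adjusted p = 0.00824, edgeR). The fit of 24 libraries with zone as a covariate also called it (-0.53, adjusted p = 0.0477). In the remote zone DESeq2 called it lower (-0.285, adjusted p = 0.0352). Against sham, a single fit of all 9 groups called it lower in the border zone (-0.58, adjusted p = 0.0154).

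Hey2, a Hey gene of arterial endothelium and smooth muscle, fell with infarction in the infarct and border zones. In the infarct zone it ran from 5.61 through 14.1 to 22.5 CPM in sham, from 6.55 through 7.11 to 13.5 CPM in MI and from 5.53 through 7.05 to 13.3 CPM in cell sheet hearts, overlapping throughout. The MI minus sham value was -0.79 there (SE 0.29, adjusted p = 0.0372, edgeR) and -0.81 in the border zone (SE 0.26, adjusted p = 0.0287). Leaving out 1 animal at a time gave adjusted p between 0.00228 and 0.0937 in the infarct zone, with the call lost for all omissions but MI replicate 1 and sham replicate 5, and between 0.00247 and 0.0651 in the border zone, with it lost without MI replicate 2 or 3 or sham replicate 1, 2, 3 or 4. Cell sheet against MI was 0.06, 0.27 and 0.41 in the 3 zones, with adjusted p = 0.964, 0.595 and 0.149. The remote value was 0.49 (adjusted p = 0.0447) without cell sheet replicate 1. In the remote zone MI against sham was -0.04 (adjusted p = 0.916). Against sham, the cell sheet hearts were at -0.73 in the infarct zone (adjusted p = 0.0771), and at -0.90 (adjusted p = 0.00928) without sham replicate 5. Over the 54 libraries Hey2 had r = 0.745 with cardiomyocyte, 0.588 with endothelial and -0.85 with macrophage markers. Within groups these were 0.647, 0.566 and -0.811. Summed cardiomyocyte markers had medians of 63120, 11540 and 2838 CPM in the infarct zone of sham, MI and cell sheet hearts. The part of cardiomyocyte RNA in the Hey2 values was not tested.

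Hey1, a Hey gene of endothelium, had medians of 19.6, 13.4 and 10.7 CPM in the infarct zone of sham, MI and cell sheet hearts. Cell sheet against sham was -0.65 (SE 0.26, adjusted p = 0.0455, edgeR), and the adjusted p lay between 0.00176 and 0.095 with 1 animal left out, the call being lost without any of cell sheet replicates 1 to 4 or sham replicates 1, 2, 3, 4 and 6. Cell sheet against MI was -0.29, 0.11 and 0.14 in the 3 zones, and none passed. MI against sham was -0.57 in the border zone (adjusted p = 0.0867) and -0.27 in the remote zone (adjusted p = 0.294). Without sham replicate 5 these were -0.73 (adjusted p = 0.00378) and -0.40 (adjusted p = 0.0246), and cell sheet against sham in the border zone went from -0.49 (adjusted p = 0.096) to -0.66 (adjusted p = 0.000734).

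In MI against sham hearts 4 of the 10 genes were called in the infarct zone, 3 higher and 1 lower, where 49.9% of all genes were called. The border zone had 4 of 10, 2 higher and 2 lower (41.7% of genes), and the remote zone 1 of 10, higher (25.8%). The border count was 1 without MI replicate 2 or 3 or sham replicate 1, 2, 3 or 4, and 2 without sham replicate 6, and the remote count was 3 without MI replicate 2. Without sham replicate 5 the counts were 5, 5 and 4 of 10, against 64.8%, 60.8% and 46.5% of all genes. In cell sheet against sham hearts 4 of 9 were called in the infarct zone, 2 in each direction (57.9% of genes). The border zone had 2 of 9, both higher (43.6%), and the remote zone 0 of 10 (0.0066%). In that remote comparison 1 member and 1520 genes had an unadjusted p under 0.05, and DESeq2 called 180 genes. Without sham replicate 5 the infarct zone had 8 of 9, with 70% of genes called, and without cell sheet replicate 6 it had 7 of 9. Cell sheet against MI and MI against sham share the MI hearts, so their values are set side by side only.

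Within a heart, taken as the pieces of the same number, the 3 pieces could be compared with the animal as a block. In sham hearts 4 of 10 were lower in the infarct than in the remote position (32.4% of all genes called): Notch3 by 0.68 on the log2 scale, Notch1 by 0.39, Jag2 by 0.34 and Notch4 by 0.22. Their adjusted p were 0.000176, 0.000307, 0.00464 and 0.0444 (edgeR), and the Notch4 call was lost without any of sham replicates 1 to 5, up to 0.169. Notch3 was lower in the infarct than in the remote piece in all 6 sham hearts. In the border against the remote position 2 of 10 were called in sham hearts (25.7%), Notch3 at -0.53 and Notch1 at -0.40, both lower, and the count was 1 without sham replicate 1 and 5 without sham replicate 6.

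In MI hearts that order was turned round for Notch3, which was higher in the infarct than in the remote piece in 5 of 6 hearts, at 0.61 (SE 0.20, adjusted p = 0.0415, edgeR). That call was lost without any of MI replicates 2 to 6, with an adjusted p of 0.115 at most. It used MI infarct libraries that had entered the choice of the set. Notch2 was also higher (0.63, adjusted p = 0.0133) and Hey2 was lower (-0.88, adjusted p = 0.00874), each in all 6 hearts, so that 3 of 10 were called against 36.4% of genes. In the border against the remote piece 0 of 10 were called and 0% of genes, while 3 members and 5943 genes had an unadjusted p under 0.05 and DESeq2 called 4370 genes.

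In cell sheet hearts 8 of the 9 members other than Notch3 differed between the infarct and the remote piece, where 62.8% of genes were called. Notch2 (1.41) and Jag1 (0.59) were higher in the infarct piece. The 6 lower ones were Hey2 (-1.25), Dll4 (-1.03), Jag2 (-0.77), Hey1 (-0.72), Notch4 (-0.54) and Notch1 (-0.50), with adjusted p between 0.00339 and 0.0193, and Heyl was at -0.08. Notch4 lost its call, at up to 0.0628, without any of cell sheet replicates 2 to 5. In the border against the remote piece 4 of 9 were called (56.4%): Notch2 (1.41) and Jag1 (0.64) higher, Hey2 (-1.16) and Dll4 (-0.59) lower. Without cell sheet replicate 1 the count was 6 of 9 (57.2% of all genes). Dll4 there had an adjusted p of up to 0.0592 without cell sheet replicate 2 or 5.

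Notch3 had its highest level in the border zone of the cell sheet hearts. It was higher in the border than in the remote piece in 6 of 6 hearts, with a median difference of 0.95 on the log2 scale, and higher in the border than in the infarct piece in 5 of 6, with a median of 0.55. Jag1 was higher in both injured pieces than in the remote piece in 6 of 6 hearts, and Hey2 and Dll4 were lower in both in 6 of 6.

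The difference between zones in the cell sheet effect was itself tested, with a term for each heart. None of the 9 members passed, for border minus infarct (0% of all genes), border minus remote (0%) or infarct minus remote (0%). Unadjusted p under 0.05 were found for 2 members in each, and for 2012, 3430 and 4190 genes, and DESeq2 called 353, 1081 and 1662 genes. Jag1 had the border minus remote value of 0.70 (adjusted p = 0.097, edgeR) and the infarct minus remote value of 0.66 (adjusted p = 0.0999). Without cell sheet replicate 1 the Jag1 values passed, 1 of 9 members for border minus remote (1.28% of genes) and 2 of 9, Jag1 and Notch2, for infarct minus remote (11.8%). The remote piece of that animal is the library with high macrophage markers.

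Each receptor, ligand and target was also set against the vessel cell markers of its own library. The relative level is the gene's log2 CPM (with 0.1 added) minus the mean log2 CPM of 11 mural genes or of 10 endothelial genes, so only differences between groups can be read. Exact two-sided permutation tests of 6 against 6 libraries (smallest possible p = 0.00216) were adjusted over 95 tests, of which 19 passed.

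The mural list itself moved. In MI against sham hearts 6 of the 11 genes were higher and 2 lower in the infarct zone, where 49.9% of all genes were called, with the contractile genes Acta2 (3.54) and Tagln (3.97) well above Myh11 (1.49) and with the potassium channel subunit gene Abcc9 lower (-1.08). In cell sheet against MI hearts 4 of 11 were higher in the border zone (18% of all genes called), Myh11 (1.37), Abcc9 (1.30), Cspg4 (0.70) and Rgs5 (0.63), while Acta2 was at -0.08 and Tagln at -0.68. The remote zone had 4 of 11 higher (17.1%), among them Myh11 (2.20) and Abcc9 (1.00), and the infarct zone had none. Summed mural markers ran from 1270 to 2465 CPM in the MI border zone and from 1916 to 3226 CPM in the cell sheet border zone. The endothelial list had 1 of 10 higher, Cdh5 (0.82), and 1 lower in that border comparison. Adipocyte genes were higher there too, 3 of 4 tested, with the adipocyte list summing to 0.0595 to 33.8 CPM in MI and 0.728 to 604 CPM in cell sheet hearts, and the part of any of these cells in the Notch values was not tested.

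**Figure D4:**
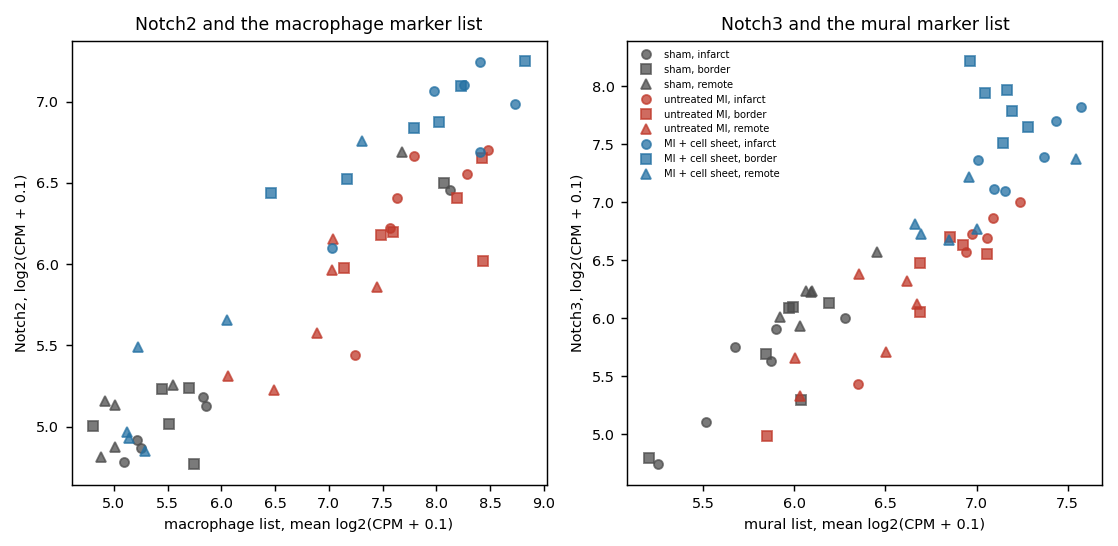
Each of the 54 libraries placed by the mean log2(CPM + 0.1) of the 8 macrophage markers and of Notch2 (left), and of the 11 mural markers and of Notch3 (right), with colour for treatment and shape for zone. Notch2 follows the macrophage list (r = 0.92) and Notch3 the mural list (r = 0.88), and the highest Notch3 point is a border piece of a cell sheet heart.

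Relative to the mural list, the Notch3 difference was smaller than in CPM. The relative Notch3 of the border zone ran from -0.87 through -0.40 to -0.16 in MI and from 0.36 through 0.70 to 1.25 in cell sheet hearts, and the groups did not overlap. The difference of means was 1.16 there and 0.54 in the infarct zone, as a description. In the remote zone it was 0.42 (p = 0.0238, exact permutation test, adjusted p = 0.0707), and MI against sham there was -0.54 (adjusted p = 0.0343). Cell sheet against sham in the remote zone was -0.12 (adjusted p = 0.37, exact test). The rise of Notch3 with MI was not seen on this scale. MI against sham was -0.17 in the infarct zone (adjusted p = 0.428) and -0.26 in the border zone (adjusted p = 0.305), by the same test. Over the 54 libraries log2 Notch3 and the mural mean had r = 0.88, and 0.83 within groups.

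Heyl relative to the mural list fell at each step from sham to MI to cell sheet in the infarct zone. It ran from -0.67 through -0.21 to 0.40 in sham, from -1.26 through -1.10 to -0.71 in MI and from -2.38 through -1.84 to -1.71 in cell sheet hearts, with no overlap between any of the groups. MI against sham was -0.89 and cell sheet against MI was -0.88 (both adjusted p = 0.0206, exact permutation test). By the same exact test the cell sheet difference was -0.85 in the remote zone (adjusted p = 0.0206) and -1.11 in the border zone (adjusted p = 0.0536). Without cell sheet replicate 1 the infarct, remote and border values were -0.88, -0.77 and -0.87, with adjusted p of 0.0343, 0.0343 and 0.0771. The mural mean that Heyl was set against was itself 5.75, 6.94 and 7.27 on the log2 scale in the infarct zone of sham, MI and cell sheet hearts. Heyl itself did not fall from sham to MI there, with a log2 fold change of 0.28 (adjusted p = 0.11, edgeR). Without TMM scaling it was called higher (0.56, adjusted p = 0.00734, edgeR). Heyl and the mural mean had r = -0.12 over all libraries and 0.34 within groups. A gene that stays level while that mean rises is lower on this scale, and other genes were not compared.

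**Figure D5:**
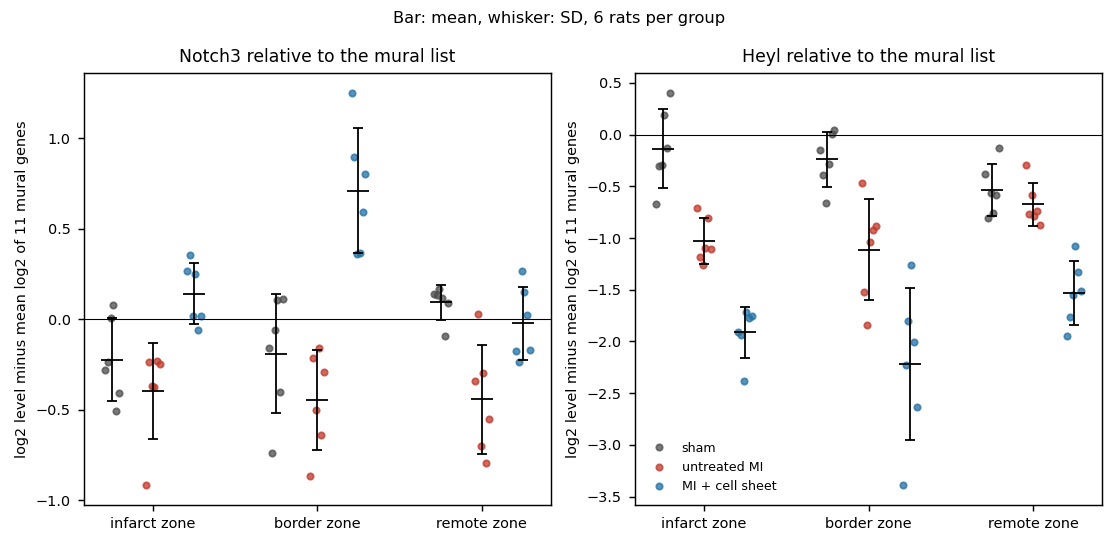
Log2 level of Notch3 (left) and Heyl (right) minus the mean log2 level of the 11 mural genes, by zone and treatment, with a point for each of the 6 libraries of a group and a bar and whisker for the mean and SD. Heyl steps down from sham to MI to cell sheet hearts in the infarct zone (medians -0.21, -1.10 and -1.84), whereas Notch3 of cell sheet hearts in the border zone lies above MI (medians 0.70 and -0.40).

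Relative to the endothelial list, Jag1 was higher than sham in the infarct zone of MI hearts (0.81, adjusted p = 0.0386, exact permutation test) and in the infarct and border zones of cell sheet hearts (1.23 and 0.85, both adjusted p = 0.0206). Without sham replicate 5, Jag1 was also called higher in the border zone (0.71, adjusted p = 0.0441) and remote zone (0.49, adjusted p = 0.0392) of MI hearts. By the exact test Jag2 was higher in cell sheet than in MI hearts in the border zone (0.52, adjusted p = 0.0206) and the remote zone (0.50, adjusted p = 0.0386). Its border range was -1.24 to -0.92 in cell sheet and -1.80 to -1.45 in MI hearts. Dll4 was lower than sham in the infarct zone of cell sheet hearts (-0.41, adjusted p = 0.0206, exact test), and Hey2 was lower than sham in the border zone of MI hearts (-0.66, adjusted p = 0.0433, and 0.0531 without sham replicate 5). Only without sham replicate 5 was Hey2 called against sham in the MI infarct zone (-0.60, adjusted p = 0.0441). The same held for Hey1 (-0.30, adjusted p = 0.0392) and Notch1 (0.29, adjusted p = 0.0441) in the cell sheet infarct zone. Only without cell sheet replicate 1 was Notch1 called higher in cell sheet than in MI hearts, in the border zone (0.395, adjusted p = 0.0433). Notch2 relative to the endothelial list was 1.97 higher in the infarct zone of cell sheet than of sham hearts (adjusted p = 0.0386, exact test, and 0.0514 without cell sheet replicate 1), and relative to the mural list it was 0.83 lower in the remote zone of cell sheet than of MI hearts (adjusted p = 0.0433). Without sham replicate 5 further Notch2 calls above sham appeared relative to the endothelial list, each with adjusted p = 0.0274. They were in the MI infarct (1.72), MI border (1.49) and cell sheet border zones (2.01). Notch2 ran against the endothelial list, with r = -0.70 over all libraries and -0.82 within groups. A fall of that list adds to these Notch2 values, so they are not a level per endothelial cell.

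The other 60 genes of the pathway were listed by role: further ligands and decoys, receptor cleavage, receptor glycosylation, trafficking, the nuclear complex, corepressors and other targets. In MI against sham hearts 18 were higher and 6 lower of 55 tested in the infarct zone (49.9% of all genes called), then 13 and 4 of 55 for the border (41.7%) and 4 and 5 of 53 for the remote zone (25.8%). Genes for trafficking of ligand and receptor had 5 of 11 higher and 1 lower in the infarct zone, and those for receptor cleavage 5 of 9 higher and 1 lower. Numbl, a homologue of the Notch inhibitor Numb, rose by 1.81 (adjusted p = 4.78e-05, edgeR) and Neurl1, a ubiquitin ligase that acts on Notch ligands, by 2.85 (adjusted p = 0.000928). Neurl1 was low throughout this comparison, with means of 0.208 CPM in sham and 1.585 CPM in MI hearts. Aph1b, a gamma-secretase subunit gene, rose by 1.57, while Dner, a neuronal Notch-related ligand, fell by 1.81. Bhlhe41, listed among the other targets, rose by 1.64 in the infarct zone (adjusted p = 0.0026, edgeR) and by 1.13 in the border zone (adjusted p = 0.0116). Dtx4, of the trafficking list, rose by 1.10 in the infarct zone.

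In cell sheet against MI hearts none of the 55 tested was called in the infarct zone, where 0% of all 16196 genes were called. In the border zone 12 were higher and 2 lower of 56 (18% of all genes). In the remote zone 2 were higher and 1 lower of 53 (17.1%). The border zone calls included 5 of 9 genes of the nuclear complex and 3 of 10 corepressors, all higher, and 0 of 7 other targets, where 18% of all genes were called and the roles were not tested against each other. Hes1 and Nrarp, further target genes outside the Hey family, were at -0.28 and 0.04 (infarct zone) and at -0.39 and 0.15 (border zone), and neither passed. Rbpj itself was at 0.23 (infarct), 0.07 (border) and -0.33 (remote) and was not called either. The ligand gene Dll1 was at -0.08, -0.17 and 0.38 in these zones and was not called. Against sham, Hes1 was called lower in the infarct zone of cell sheet hearts (-0.65, adjusted p = 0.0219, edgeR). The median log2 fold change of the tested pathway genes was 0.09 in the border zone, against 0.00 for all genes.

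Members fell into patterns of likeness over the 54 libraries, which share scaling and cell makeup and so are described without a test. Notch4, Jag2, Dll4 and Hey1 followed the endothelial list, with r within groups of 0.82, 0.85, 0.79 and 0.86. Notch4 and Jag2 were most like each other, at 0.88 within groups. Notch2 went against these, at -0.83 with Hey1. Notch3 was most like Jag1 among the members, at 0.70 over all libraries and 0.53 within groups. Over the 48 libraries without sham replicate 5 and cell sheet replicate 1 it was most like Notch2 (0.68, and 0.49 within groups), ahead of Jag1 (0.60 and 0.37). The Notch2 value within groups was 0.06 over all 54. Notch3 was at -0.35 and 0.16 with Heyl.

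Among 13291 genes at a mean log2 CPM of 1 or more, those most like Notch3 over all libraries included Hspg2 (0.95), Col4a2 (0.94), Afap1 (0.91) and Zcchc14 (0.90), by Pearson correlation of log2 CPM. Hspg2 codes for perlecan and Col4a2 for a collagen IV chain, both of the basement membrane. After the group means were taken off the 5 most like it were Hspg2 (0.88), Ttc28 (0.87), Col4a2 (0.86), Zcchc14 (0.84) and Col4a1 (0.84). Without the 6 libraries of sham replicate 5 and cell sheet replicate 1, a choice made after the data were seen, Trrap (0.94), Hspg2 (0.93), Bcl9l (0.92), Col4a2 (0.91) and Sec16a (0.90) led. Jag1 ranked 400 of the 13291 and Notch2 ranked 1185, while Heyl ranked 9494.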

How the data were processed

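RNA was taken from 3 zones of 18 rat hearts, as poly-A libraries sequenced paired-end. Per the labels and the study's methods, the authors aligned reads with STAR to the rat build mRatBN7.2 and deposited raw read counts per gene, 1 table a library, and tested them with DESeq2. The program that counted the reads, and whether it used strand, are not given in the sources used here, so genes that overlap on opposite strands could share reads. The 5 summary lines of each table, 17.0 to 42.8% of its total, name no gene and entered neither library sizes nor tests. Their share differed between treatments. In the remote zone it was 27.4 to 40.3% in sham, 29.2 to 40.3% in MI and 23.4 to 31.9% in cell sheet libraries. In the infarct zone it was 28.2 to 42.8% in sham and 17.0 to 27.5% in cell sheet libraries. The part of this in the comparisons was not tested. Libraries held 12699204 to 23397754 counts on genes, and no pair within a group was identical (135 pairs).

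Counts were TMM-normalized and fitted with edgeR 4.0.16 in R 4.3.3 (filterByExpr, quasi-likelihood test), with Benjamini-Hochberg adjustment over all genes and a threshold of 0.05. The 10 genes passed the low-count filter in every comparison. Treatments were compared within a zone (6 against 6 libraries), with summed infarct and border counts as a further comparison, and zones within a treatment with the animal as a block. Intervals are 95% from the fit's t distribution. Same-numbered pieces of 1 treatment were taken to come from 1 heart (median correlation of their deviations 0.463 in sham, 0.136 in MI and 0.187 in cell sheet hearts). The correlations ran from 0.287 to 0.975 in sham, from -0.642 to 0.798 in MI and from -0.601 to 0.586 in cell sheet hearts. Pieces of 1 treatment with different numbers were not compared. Numbers do not link animals across treatments (medians -0.069, -0.22 and 0.044). Relative levels used log2(CPM + 0.1) and exact permutation tests in SciPy 1.17.1. Of the pathway genes, Hes1, Nrarp, Rbpj and Dll1 are named for cell sheet against MI. Those called with a log2 fold change past 1 are named for MI against sham in the infarct zone, and not throughout for other comparisons. The scripts were tested on simulated counts. Alternatives were DESeq2 1.42.0, no TMM, no low-count filter, all 9 groups in a single fit, replicate blocks, an added 1 CPM and leaving out each replicate. Leaving out sham replicate 5 or cell sheet replicate 1 from the relative levels and likeness was chosen after seeing the data. The members and gene lists were chosen with earlier results of these data known. Promoter sequences are from RefSeq (GRCr8), and no coordinate was carried between builds. One gene among those most like Notch3 is not reported here.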

Additional observations from a re-analysis of the deposited data

Results flagged for a closer look

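Single libraries stood apart from the other 5 of their group in 13 of 90 groups of gene, treatment and zone, each by a gap to the nearest value that exceeded Dixon's 95% limit for 6 samples. Chance alone gives about 1 in 20. Of these, 8 belonged to sham replicate 5: Notch2 was high at 87.9 CPM in the infarct, 90.3 CPM in the border and 103 CPM in the remote zone, against 27.1 to 38.1 CPM in the other sham libraries. In the same animal Notch4 (34.9 CPM, infarct zone), Jag1 (20.5 CPM, border zone), Jag2 (23.9 CPM, infarct zone), Dll4 (21.0 CPM, border zone) and Hey1 (11.5 CPM, remote zone) were low. The remote library of cell sheet replicate 1 was high in Notch2 (108 CPM against 28.7 to 50.4) and low in Dll4 (27.3 CPM against 50.6 to 57.5). Both animals had high macrophage markers in those libraries, and the part of this in the values was not tested.

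The other 3 were in other animals. Notch1 was 114 CPM in the infarct zone of cell sheet replicate 6 against 83.3 to 92.0 in the other 5. Jag2 was 60.3 CPM in the border zone of cell sheet replicate 2 against 50.6 to 54.1. Hey2 was 13.5 CPM in the infarct zone of MI replicate 1 against 6.55 to 8.6.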

How the results depend on the processing

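Counts of members called depended on the setting as follows. With the replicate number as a block, which does not link animals across treatments, the count went from 4 to 2 for MI against sham in the border zone, from 1 to 2 in the remote zone, from 3 to 1 for cell sheet against MI in the border zone, from 1 to 0 in the remote zone (Notch3, adjusted p = 0.0585) and from 1 to 0 in the summed pieces. Without the animal block, infarct against remote in sham went from 4 to 1, border against remote in sham from 2 to 0, and border against remote in MI from 0 to 2. DESeq2 gave 3 in place of 1 for cell sheet against MI in the remote zone, 1 in place of 0 for cell sheet against sham in the remote zone, 3 in place of 1 in the summed pieces, 2 in place of 0 for border against remote in MI, and 1 in place of 0 for the cell sheet effect of border minus remote and of infarct minus remote. A single fit of all 9 groups gave 1 in place of 3 for cell sheet against MI in the border zone. In the summed pieces, 24 libraries with zone as a covariate gave 3 and no TMM gave 2.

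Leaving out 1 animal at a time gave 1 to 5 for MI against sham in the border and 1 to 4 in the remote zone, 1 to 6 for cell sheet against MI in the remote zone, 3 to 8 for cell sheet against sham in the infarct zone, 0 to 3 in the summed pieces, 1 to 5 for border against remote in sham, and 0 to 1 and 0 to 2 for the cell sheet effect of border minus remote and of infarct minus remote. The Notch3 cell sheet effect of infarct minus remote, -0.12, lay between -0.28 and 0.034, above 0 without MI replicate 3. Over all settings, 2615 fold changes of single members kept their direction and side of the threshold, 92 lost a call, 72 gained one and 1 changed sign. The causes were not tested.

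With 6 hearts a group and 12699204 to 23397754 counts a library, counting error was small for these genes, and the spread between hearts limits the comparisons. Transcript isoforms, protein and receptor cleavage were not measured.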
